A study of Rattus norvegicus with 35 samples.

Results

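The endothelial microRNA pair rno-miR-126 and rno-miR-126* and the clustered microRNAs rno-miR-221 and rno-miR-222 were followed through the first week after contusion of the rat spinal cord. The 4 were picked by probe name, as microRNAs with known roles in vessels, among the 1766 microRNA names on the array, and each was printed as 4 spots. RNA came from a fragment of thoracic cord around the 8th vertebra of adult female Wistar rats, 5 animals per group and 1 array per animal. Lesioned rats had a laminectomy and a 200 kdyne contusion and were killed 1, 3 or 7 days later (LS1, LS3, LS7), sham rats had the laminectomy alone with the same survival times (SH1, SH3, SH7), and control rats (CT) had no surgery. The labels name no genetic change and no agent given beside the surgery. The fragment holds vessels, blood, glia and neurons together, so fewer endothelial cells and less of a microRNA per cell cannot be told apart.

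A microRNA is cut from a hairpin transcript, and either strand of the hairpin can be loaded into the silencing complex, where its seed (the bases from position 2 to 8) chooses the messenger RNAs to be repressed. miR-126 is the best known endothelial microRNA: its hairpin lies in an intron of Egfl7, a gene of endothelial cells, and in mouse and zebrafish its loss leaves vessels leaky because inhibitors of the response to VEGF are no longer held down. The other strand of the same hairpin, miR-126*, was studied mainly in vessel repair and tumours of mouse and human. miR-221 and miR-222 are made from neighbouring hairpins and share a seed. In human endothelial cells they repress KIT, the receptor of stem cell factor, and so restrain tube formation, while in smooth muscle and tumour cells they repress the cell cycle inhibitor CDKN1B and favour growth.

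The mature sequences, with the seed in capitals, show why the 4 microRNAs fall into 3 seed groups (RefSeq, build GRCr8, 5′ to 3′):
rno-miR-126: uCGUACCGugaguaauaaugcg
rno-miR-126*: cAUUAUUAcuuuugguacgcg
rno-miR-221: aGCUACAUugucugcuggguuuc
rno-miR-222: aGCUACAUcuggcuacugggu
The RefSeq names of the 4 are rno-miR-126a-3p, rno-miR-126a-5p, rno-miR-221-3p and rno-miR-222-3p. miR-126 lies at chr3:29813219-29813240 and miR-126* at chr3:29813182-29813202, both on the plus strand and 16 bases apart, within Egfl7 (chr3:29802481-29814966). miR-222 lies at chrX:6022682-6022702 and miR-221 at chrX:6023246-6023268, also on the plus strand, and their hairpins are separated by 458 bases. miR-221 and miR-222 begin with the same 8 bases and differ after that. Among the 724 mature rat microRNAs in the table, no other carries the seed of miR-126 or that of miR-126*, and the seed of miR-221 is found in miR-222 alone.

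Of the 1766 names, 816 were detected: over 0.5 of the spots of a detected microRNA lay more than 2 SD above the negative-control mean in 3 or more animals of some group. miR-126 was detected on all 35 arrays with a median background-subtracted signal of 3658, and miR-222 on all 35 with a median signal of 310.5. miR-126* was detected on 33 arrays and miR-221 on 32. The arrays without miR-126* were 2 of the 5 LS7 arrays, and those without miR-221 were 2 LS7 arrays and 1 CT array, so the LS7 values of these 2 probes lie near the floor of the assay. The probes for the other strands, miR-221* and miR-222*, which were designed on the human sequence, were detected on 7 and 0 arrays. No member spot was marked bad. Values below are green-channel signals after variance stabilization (VSN) on a log2 scale. The LS7 arrays were dim: by signal and by array median all 5 lay below every SH7 array, and only LS7 replicate 1 reached the CT range. The signal, in units of the negative-control SD, was 6.57 to 12.9 in LS7 arrays, against 14.5 to 20.4 in SH7 and 10.8 to 20.8 in CT arrays. The median value of all detected microRNAs was 5.67 to 5.85 on LS7 replicates 2 to 5, against 6.42 to 6.76 on SH7 and 6.27 to 6.69 on CT arrays. The green scanner gain was 600 to 720 in LS7 and 550 to 610 in SH7. LS7 replicate 1 (median 6.30, within the CT range) and LS3 replicate 2 (median 5.71) each lay outside the rest of their group. Arrays were scanned on 13 days, with at most 4 arrays a day. The part of these array differences in the results was not tested.

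On VSN values both strands of miR-126 were lower in contused than in sham cords at 7 days, a direction that turned under 3 of 8 other scalings for miR-126 and under 1 of 8 for miR-126*. miR-126 averaged 10.46 ± 0.88 in LS7 and 12.003 ± 0.30 in SH7 (SD, n = 5 each), a ratio of 0.342, and miR-126* averaged 6.68 ± 0.69 in LS7 and 8.09 ± 0.52 in SH7, a ratio of 0.376. At 3 days both strands were below every sham value in every contused animal, which held for 11.3% of the 816 detected microRNAs. Neither strand passed the test across all microRNAs, and after centring each array on its median the separation held for miR-126* only. At 1 day neither strand differed from sham beyond the spread of the animals.

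For miR-126 the day 1 values were 11.62, 12.01, 11.17, 11.83 and 11.48 in LS1, against 11.96, 11.29, 11.82, 11.37 and 11.77 in SH1. The groups overlapped almost fully, and the change was -0.01 ± 0.24 (log2, SE; 95% interval -0.54 to 0.51; limma adjusted p = 0.996). The value in the unoperated cord was 11.95, 11.52, 11.99, 11.84 and 11.78 in the 5 CT animals, which placed LS1 and SH1 slightly below CT.

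At 3 days miR-126 read 11.47, 10.02, 11.71, 11.73 and 11.89 in LS3, against 12.41, 11.96, 12.15, 11.93 and 12.05 in SH3. All 5 contused animals lay below all 5 sham animals, with LS3 replicate 2 far below the others. The change was -0.74 ± 0.35 (limma adjusted p = 0.286), and without LS3 replicate 2 it was -0.40 (limma adjusted p = 0.243). For miR-126* the values were 7.66, 6.26, 7.19, 7.38 and 7.76 in LS3, against 7.97, 7.87, 7.95, 8.51 and 8.29 in SH3, again without overlap. Its change was -0.87 ± 0.34 (limma adjusted p = 0.164). Thus 2 of the 4 microRNAs were lower in every LS3 than in every SH3 animal, which held for 11.3% of the 816 detected microRNAs. After each array was centred on its median the 5 LS3 values of miR-126* still lay below all SH3 values, while for miR-126 only 2 of the 5 did. The share of all detected microRNAs without overlap was not computed on the centred scale, so whether this is unusual cannot be told. The 1 scan day shared by LS3 and SH3, with 1 array of each, gave -0.68 for miR-126 and -0.58 for miR-126*.

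At 7 days miR-126 read 11.56, 10.38, 10.65, 10.59 and 9.11 in LS7, against 11.51, 11.93, 12.16, 12.21 and 12.21 in SH7. LS7 replicate 1 was within the sham range and the other 4 contused animals were below it. The change was -1.55 ± 0.39 (95% interval -2.37 to -0.72; limma adjusted p = 0.00407). miR-126* read 7.69, 6.15, 6.69, 6.92 and 5.93 in LS7, against 7.48, 8.14, 7.66, 8.68 and 8.49 in SH7. Again LS7 replicate 1 was the contused animal inside the sham range, and the change was -1.41 ± 0.38 (limma adjusted p = 0.00448). On day 1 this strand had read 8.02, 7.82, 7.22, 8.10 and 7.41 in LS1, against 8.12, 7.12, 8.07, 7.49 and 7.71 in SH1, with a change of 0.01 ± 0.29 (limma adjusted p = 0.999), and its CT values were 8.12, 7.71, 7.59, 7.84 and 7.83.

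The 1 scan day that held arrays of LS7 and SH7 held 1 of each, LS7 replicate 5 and SH7 replicate 3, and their difference, which has no replicate, was -3.05 for miR-126 and -1.73 for miR-126*. LS7 replicate 5 had the lowest miR-126 and miR-126* values of its group and its highest scanner gain (720). No day held arrays of LS1 and SH1, so batch and group cannot be told apart there.

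**Figure D1:**
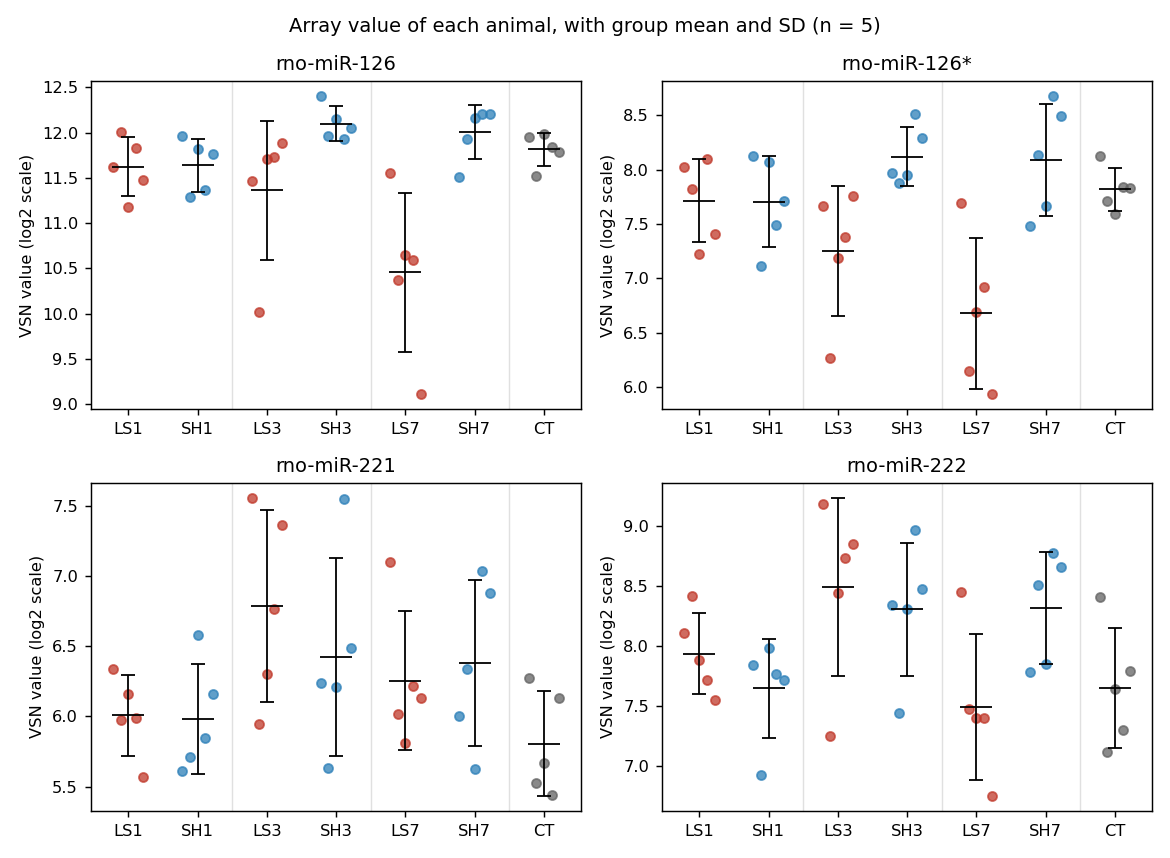
VSN value (log2 scale) of each of the 4 microRNAs in every animal, by group; points are animals, bars are the mean and SD of 5 animals (red, contused; blue, sham; grey, control). At 3 days every LS3 value of miR-126 and miR-126* lies below every SH3 value, which held for 11.3% of the 816 detected microRNAs. At 7 days 4 of the 5 LS7 values of each lie below every SH7 value, on a scale on which all detected microRNAs together were lower in LS7. Under other scalings the day 7 direction of both strands turned, as the plot of scalings shows.

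These calls stood on a broad background. In LS7 against SH7, 58.4% of the 719 microRNAs tested (detected and with an interquartile range over the 35 arrays above 0.5) and 54.0% of all 816 detected were called lower, and the median change of the detected microRNAs was -1.001. That split depended on the scaling: 36 of the 719 were called higher and 420 lower on VSN values, 146 higher and 216 lower after centring, 151 higher and 294 lower at the 75th percentile of all microRNAs, and 476 higher and 3 lower at the 75th percentile of those detected on all arrays. After normexp with quantile normalization 33 were called higher and 63 lower, and as the ratio to red 50 higher and 37 lower. miR-126, whose interquartile range was 0.484, was tested among all 816 detected microRNAs and the other 3 members among the 719. Beyond that median, miR-126 changed by a further -0.55 and miR-126* by -0.41. In LS3 against SH3 the shares called in either direction were 5.15% and 5.27%, the median change was -0.24, and the members' changes beyond it were -0.49 for miR-126 and -0.62 for miR-126*. In LS1 against SH1 no microRNA was called by limma (0.0% in both sets; 71 of the 719 had an unadjusted p under the limit of 0.05), and none of the 4 members was. Scaling to the spiked-in controls instead called 803 microRNAs at 1 day, all 4 members among them and higher in LS1 (1.62 to 1.92).

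The size of the day 7 change, and for both strands its direction, depended on how the arrays were put on a common scale. Over 8 other scalings the change of miR-126 in LS7 against SH7 ran between -1.59 and 0.18, lower in 5 and higher in 3, with a lower call in 4 of them. That of miR-126* ran between -1.34 and 0.66, lower in 7 and higher in 1, with a lower call in 4. The scalings that turned the sign of miR-126 were the 75th percentile of microRNAs detected on all arrays, normexp with quantile normalization, and the ratio to the red channel. Centring each array on its median left -0.81 for miR-126 (limma adjusted p = 0.0511) and -0.67 for miR-126* (limma adjusted p = 0.078). Set against the other detected microRNAs under the same scaling, miR-126* kept its direction. Its change was below the median change of all detected microRNAs in 8 of the 8 scalings at 7 days, by 0.17 to 0.69. At 3 days it was below that median in 8 of 8, by 0.38 to 0.63. miR-126 was below that median in 6 of the 8 at 7 days and in 8 of 8 at 3 days, by 0.16 to 0.63. No test was run on these counts, since the scalings share the same arrays. A shift common to an array also moves a microRNA and the median alike. Centring therefore had to repeat the VSN difference. The percentile and spike-in scalings differ from each other here only where low values were raised to a floor. The counts are thus not 8 separate checks.

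**Figure D2:**
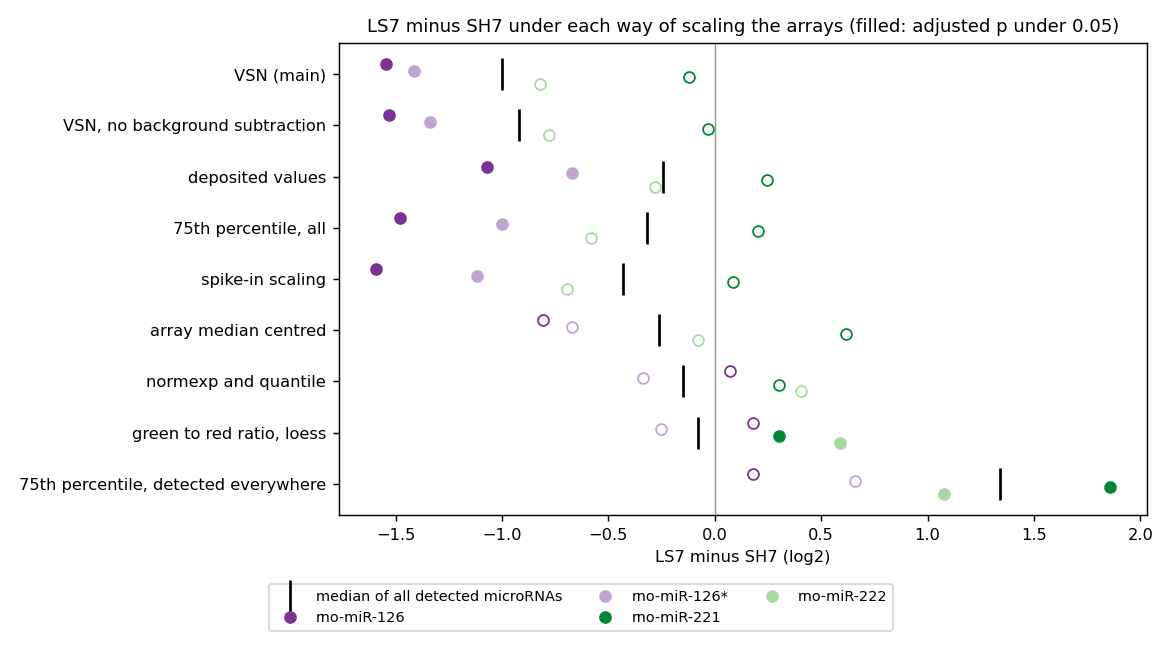
Change of the 4 microRNAs in LS7 minus SH7 (log2, horizontal axis) under VSN and 8 other scalings (rows); filled points had a limma adjusted p under 0.05, and the black tick is the median change of all detected microRNAs. miR-126* is left of the tick in every row and miR-221 right of it, while the sign of each change itself turns in at least 1 row: miR-126 is above 0 in the last 3 rows and miR-126* in the last. In the centred row the distance of a point from the tick repeats that of VSN by construction.

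Against unoperated cord both strands were lower at 7 days on VSN values, which turned under 2 of 8 other scalings for miR-126 and 1 of 8 for miR-126*, with a lower call in 4 and 3 of them. In LS7 against CT, miR-126 changed by -1.36 ± 0.39 (limma adjusted p = 0.0123) and miR-126* by -1.14 ± 0.36 (limma adjusted p = 0.0162), where 45.8% of the 816 detected and 50.9% of the 719 were called lower and the median change was -0.85. Both calls were lost with scan day as a block (-1.40 and -0.96; limma adjusted p = 0.0799 and 0.171) and after centring (-0.75 and -0.53; limma adjusted p = 0.093 and 0.159). In LS1 against CT the changes were -0.19 and -0.10, and in LS3 against CT -0.45 and -0.57, without a call. For miR-126* in LS1 against CT, scan day as a block, which rests on 1 array of each group, gave -0.90 and spike-in scaling 0.94, each called and in opposite directions. The changes after sham surgery alone were not called: those of miR-126 were -0.18, 0.28 and 0.19 in SH1, SH3 and SH7, and those of miR-126* were -0.12, 0.30 and 0.27. On the 3 scan days shared by LS7 and CT, each with 1 array of both, the change ran from -2.88 to -0.39 for miR-126 and from -1.66 to -0.43 for miR-126*. The 3 sham comparisons and the 3 contusion comparisons share the same CT animals.

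Within the contused animals, LS7 was lower than LS1 for miR-126 (-1.17 ± 0.40, limma adjusted p = 0.0201) and for miR-126* (-1.04 ± 0.38, limma adjusted p = 0.0252). The median change of all detected microRNAs was -1.13, 57.0% of the 816 and 61.5% of the 719 were called lower, and after centring the changes were -0.22 and -0.09. This call of miR-126* was lost without LS1 replicate 1 (-0.96), 2 (-1.01) or 4 (-0.94) or LS7 replicate 2 (-0.91) or 5 (-0.85), and that of miR-126 without LS1 replicate 2 (-1.07, limma adjusted p = 0.0529). The 1 scan day shared by LS7 and LS1 held LS7 replicate 1 and LS1 replicate 3, whose differences were 0.38 and 0.47, in the other direction. For both strands these arrays had the highest LS7 and the lowest LS1 value. The LS7 against LS1 change of each strand also turned under 3 of the 8 other scalings. LS3 against LS1 gave no call (-0.26 for miR-126 and -0.46 for miR-126*), nor did LS7 against LS3 (-0.91 and -0.57). Without LS3 replicate 2, miR-126 in LS7 against LS3 was -1.24 (limma adjusted p = 0.0309).

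On VSN values the effect of contusion against sham differed between 7 and 1 days for both strands, a call that most other scalings did not give. For miR-126 the contrast of 7 days with 1 day was -1.53 ± 0.45 (limma interaction contrast over 35 arrays, adjusted p = 0.00592) and for miR-126* it was -1.42 ± 0.45 (adjusted p = 0.00758). Of all microRNAs, 51.6% of the 816 and 56.1% of the 719 were called lower in this contrast. Under the 8 other scalings the contrast of miR-126 was lower in 5 and higher in 3, with a call in 3, and that of miR-126* lower in 7 and higher in 1, with a call in 2. In the deposited values it was -0.81 for miR-126 and -0.51 for miR-126* (limma adjusted p = 0.0912 and 0.159), and after centring -0.52 and -0.41 (limma adjusted p = 0.31 and 0.401). Between 7 and 3 days the differences were -0.81 (adjusted p = 0.215; without LS3 replicate 2, -1.15 and 0.0234) and -0.55 (adjusted p = 0.386) by limma, with 1.72% of the 816 and 3.34% of the 719 called. Between 3 and 1 days they were -0.72 and -0.88, with 0.0% called in either set.

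**Figure D3:**
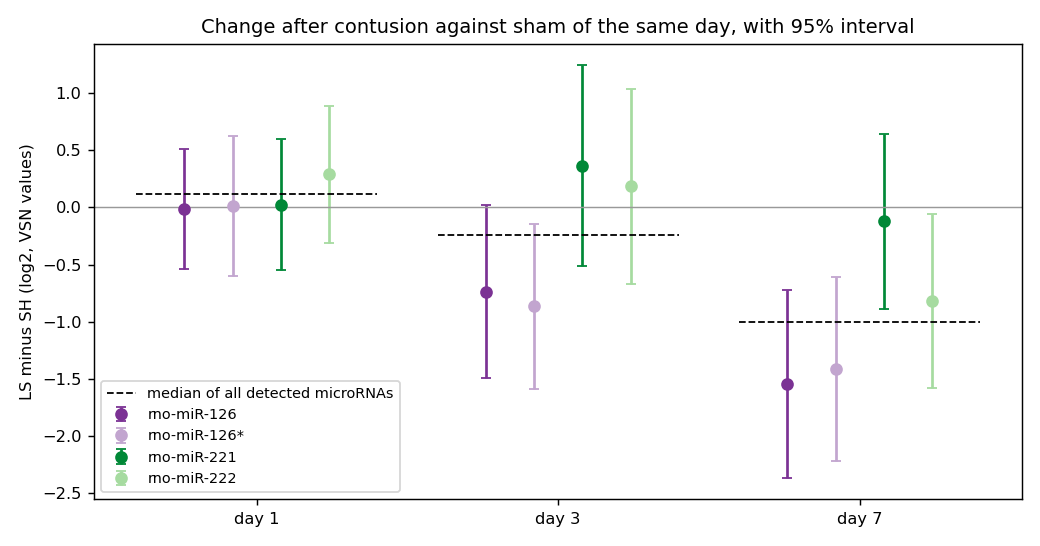
Change in contused against sham cord of the same day (LS minus SH, log2 of VSN values) for the 4 microRNAs at 1, 3 and 7 days; points are limma estimates from 5 animals a group, bars their 95% intervals, and the dashed line is the median change of all 816 detected microRNAs. Both miR-126 strands lie below the dashed line at 3 and 7 days and miR-221 above it; under other scalings the whole day 7 set moves, and miR-126 lies above the line in 2 of 8.

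In the main limma tests on VSN values miR-222 was called only in the contrast of the day 7 with the day 1 effect of contusion (limma adjusted p = 0.049). miR-221 and miR-222, the pair with the shared seed, passed the test in none of the 12 comparisons of groups. Their highest group mean was that of LS3, where miR-221 averaged 6.79 ± 0.69 and miR-222 averaged 8.49 ± 0.74, against 6.42 ± 0.70 and 8.30 ± 0.55 in SH3 and 5.81 ± 0.37 and 7.65 ± 0.50 in CT (SD, n = 5 each). At 7 days miR-222 was lower in LS7 than in SH7 by a margin that missed the test, and the 95% interval of miR-221 spanned 0.

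On day 1 miR-221 read 6.34, 5.98, 6.16, 5.99 and 5.57 in LS1, against 5.61, 5.71, 6.58, 5.84 and 6.16 in SH1. miR-222 read 8.10, 8.41, 7.88, 7.72 and 7.54 in LS1, against 7.84, 6.92, 7.98, 7.76 and 7.71 in SH1. Both pairs of groups overlapped, with changes of 0.03 ± 0.27 and 0.29 ± 0.28 (limma adjusted p = 0.989 and 0.742).

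On day 3 miR-221 read 7.56, 5.95, 6.30, 6.77 and 7.37 in LS3, against 6.24, 5.63, 6.21, 7.55 and 6.49 in SH3. miR-222 read 9.18, 7.24, 8.44, 8.73 and 8.84 in LS3, against 8.34, 7.44, 8.30, 8.96 and 8.47 in SH3. The lowest LS3 value of both was again that of replicate 2, and the groups overlapped. The changes were 0.37 ± 0.41 (95% interval -0.52 to 1.25) for miR-221 and 0.19 ± 0.40 (95% interval -0.67 to 1.04) for miR-222, so a rise or a fall of moderate size is compatible with these values.

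On day 7 miR-221 read 7.10, 6.01, 5.81, 6.22 and 6.13 in LS7, against 6.001, 6.34, 5.63, 7.04 and 6.88 in SH7. miR-222 read 8.44, 7.47, 7.40, 7.40 and 6.75 in LS7, against 7.78, 8.50, 7.84, 8.77 and 8.66 in SH7. LS7 replicate 1 had the highest LS7 value of both, and the other 4 contused animals lay below all sham animals for miR-222 only. miR-221 changed by -0.12 ± 0.36 (95% interval -0.89 to 0.64; limma adjusted p = 0.782) and miR-222 by -0.82 ± 0.36 (95% interval -1.58 to -0.06; limma adjusted p = 0.0554). Without LS7 replicate 1 the change of miR-222 was -1.06 and passed the test (limma adjusted p = 0.00816), and it passed also without SH7 replicate 1 (-0.95) or SH7 replicate 3 (-0.94). The scan day shared by LS7 and SH7, with 1 array of each, gave 0.50 for miR-221 and -1.10 for miR-222.

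Read against the other microRNAs, miR-221 lay on the high side at 7 days, though it was detected on only 3 of the 5 LS7 arrays. Its LS7 values thus lie near the floor of the assay, and the part of that floor in this position was not tested. The change of miR-221 in LS7 against SH7 was 0.88 above the median change of the detected microRNAs. In the 8 other scalings, which as set out above are not separate checks here, miR-221 was above that median in 8, by 0.38 to 0.89. Its own sign turned with the scaling, higher in 7 and lower in 1, with a higher call in 2. miR-222 was above the median in 4 scalings and below it in 4, and its sign was higher in 3 and lower in 5, with a higher call in 2.

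Against CT, whose values were 6.27, 5.52, 5.67, 5.44 and 6.13 for miR-221 and 8.40, 7.12, 7.64, 7.30 and 7.79 for miR-222, the largest changes were in LS3. There miR-221 changed by 0.98 ± 0.38 (95% interval 0.19 to 1.78; limma adjusted p = 0.184) and miR-222 by 0.84 ± 0.40 (limma adjusted p = 0.345), where 0.278% of the 719 and 0.858% of the 816 microRNAs were called. Both were higher in 8 of the 8 other scalings, with a call in 3 for miR-221 and in 2 for miR-222, and without LS3 replicate 2 both passed (miR-221 1.19, limma adjusted p = 0.0202; miR-222 1.15, limma adjusted p = 0.0191). Both were called when scan day entered as a random effect (0.95 and 0.91; limma adjusted p = 0.00251 and 0.00458) or arrays were weighted (1.38 and 1.33; limma adjusted p = 0.00314 and 0.00202), but not with scan day as a fixed block (limma adjusted p = 0.145 and 0.12). In LS7 against CT miR-221 changed by 0.45 ± 0.34 (limma adjusted p = 0.285) while the median microRNA changed by -0.85. It was higher in 8 of 8 scalings with a call in 5, but was detected on only 3 of the 5 LS7 and 4 of the 5 CT arrays. There miR-222 changed by -0.16 ± 0.38, which turned to higher in 7 of the 8 with a call in 3. In LS1 against CT the changes were 0.20 and 0.28, where 7.51% of the 719 and 6.37% of the 816 were called.

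The sham changes, set against the same CT animals, were not called. miR-221 changed by 0.18, 0.62 and 0.57 and miR-222 by -0.01, 0.65 and 0.66 in SH1, SH3 and SH7 against CT, where limma called 0.0% of microRNAs at each day (6, 36 and 83 of the 719 had an unadjusted p under 0.05). The SH3 and SH7 changes of both were positive in 8 of the 8 other scalings. Between the contused groups, LS3 against LS1 gave 0.78 ± 0.37 for miR-221 and 0.56 ± 0.38 for miR-222 (limma adjusted p = 0.178 and 0.308; 3.89% of the 719 and 2.45% of the 816 called), and without LS3 replicate 2 both passed (0.99 and 0.87; limma adjusted p = 0.0429 and 0.0449). LS7 against LS3 gave -0.53 and -0.997 (limma adjusted p = 0.372 and 0.164; 0.834% and 0.49% called), and without LS3 replicate 2 that of miR-222 passed at -1.31 (limma adjusted p = 0.015). LS7 against LS1 gave 0.25 for miR-221, higher in 7 of 8 other scalings with a higher call in 6 and lower by spike-in scaling. For miR-222 it gave -0.44, which turned to higher in 6 of the 8 with a higher call in 3, and had a lower call by spike-in scaling. The contrast of the day 7 with the day 1 effect of contusion was -1.11 ± 0.49 for miR-222 (limma adjusted p = 0.049), lower in 5 scalings and higher in 3, and -0.15 for miR-221. The call of miR-222 was lost without LS1 replicate 1, 2 or 3, SH1 replicate 1, 2 or 5, LS7 replicate 2, 3, 4 or 5, or SH7 replicate 2, 4 or 5, with values between -1.16 and -0.92. Between 7 and 3 days the contrast was -1.01 for miR-222 (limma adjusted p = 0.156), and it passed without LS3 replicate 2 (-1.32) or LS7 replicate 1 (-1.24).

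**Figure D4:**
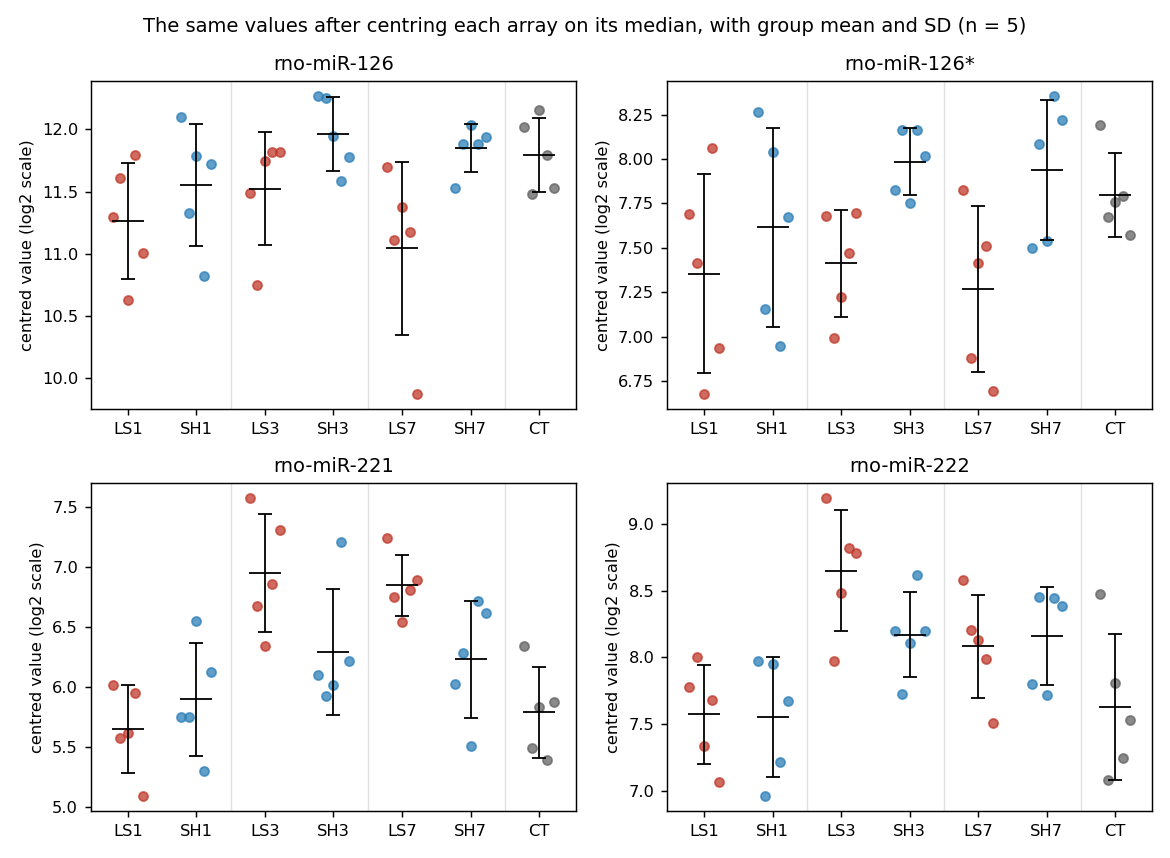
The values of the 4 microRNAs after each array was centred on the median of its detected microRNAs (log2 scale); points are animals, bars the mean and SD of 5 animals. On this scale all 5 LS3 values of miR-126* lie below the SH3 values, for which the share over all detected microRNAs was not computed. Of the 5 LS7 values, 4 of miR-126 lie below the SH7 range and 4 of miR-221 above it. The direction of the LS7 against SH7 change of miR-126 and of miR-221 turned under other scalings.

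Differences of log values taken within an array do not move with a scale factor common to the array. For VSN values this holds only in part near the floor, since VSN also fits an additive offset to each array. The difference of the strands, miR-126 minus miR-126*, was 3.87, 4.23, 3.96, 3.67 and 3.18 in LS7, against 4.03, 3.79, 4.49, 3.53 and 3.72 in SH7. The groups overlapped, with means 0.13 apart (-0.13; exact permutation p = 0.603, two-sided; 0.724 after adjustment over 6 comparisons). At 1 and 3 days the mean differences of LS against SH were -0.03 and 0.13 (exact permutation p = 0.833 and 0.587). On VSN values no difference between the strands passed the test at any day, though under the ratio to the red channel the day 7 difference was 0.43 (exact permutation, adjusted p = 0.0476). The values of both strands correlated over the 35 arrays (Pearson r = 0.897, and 0.808 after centring, as a description).

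miR-221 minus miR-222 was -1.34, -1.46, -1.59, -1.18 and -0.62 in LS7, against -1.78, -2.17, -2.22, -1.73 and -1.77 in SH7. All 5 contused animals lay above all 5 sham animals. The difference of the groups was 0.70 (exact permutation p = 0.0079, two-sided and the smallest that 5 against 5 animals can give; 0.0476 after adjustment over 6 comparisons). miR-221 was not detected on 2 of these LS7 arrays, and under normexp with quantile normalization and under the ratio to the red channel the direction turned (-0.10 and -0.29). Without any 1 SH7 animal the exact permutation adjusted p was 0.0954, with values between 0.63 and 0.75. All 5 LS7 values still lay above those of the remaining SH7 animals. Leaving out 1 LS7 animal lost no call. The groups then differ in size, and while they stay apart the p only counts the groupings that are as extreme. It cannot tell whether the result rests on 1 animal. At 1 and 3 days the differences were -0.26 and 0.18 (exact permutation p = 0.262 and 0.405).

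**Figure D5:**
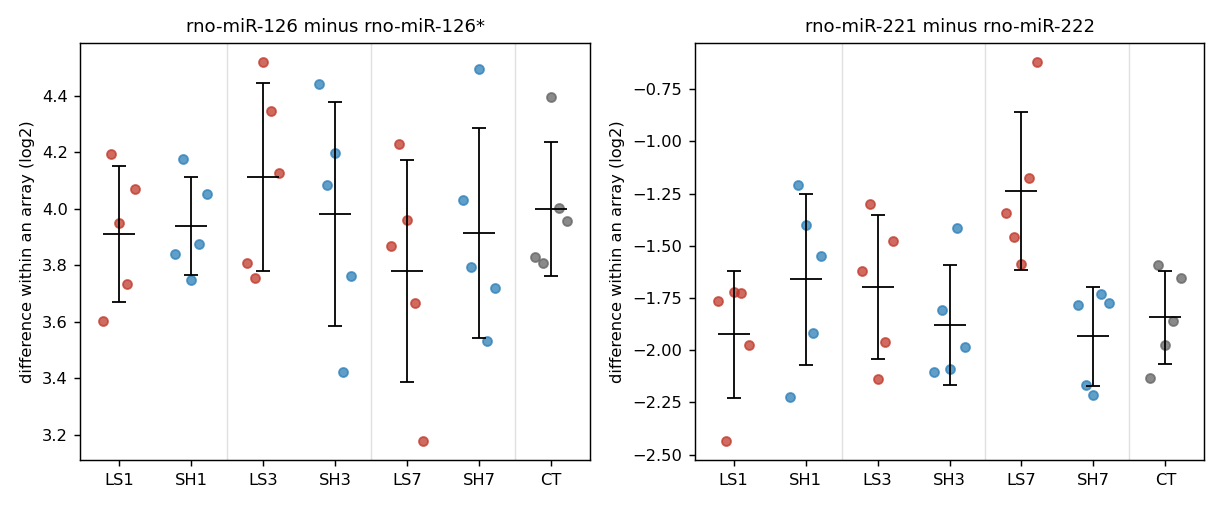
Within-array differences (log2) of miR-126 minus miR-126* and of miR-221 minus miR-222, by group; points are animals, bars the mean and SD of 5 animals. In the right panel the 5 LS7 values, -1.59 to -0.62, lie above the 5 SH7 values, -2.22 to -1.73, a direction that turned under 2 other scalings; in the left panel LS7 and SH7 overlap.

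The order of the group means on VSN values was SH3, SH7, CT, SH1, LS1, LS3 and LS7 for miR-126, and SH3, SH7, CT, LS1, SH1, LS3 and LS7 for miR-126*. Neighbours in these orders differed by less than the larger of their SDs, except LS3 and LS7 for miR-126 (0.91 against an SD of 0.88). For miR-221 the order was LS3, SH3, SH7, LS7, LS1, SH1 and CT, and for miR-222 it was LS3, SH7, SH3, LS1, CT, SH1 and LS7, with no neighbours apart by more than the larger SD. After centring, LS7 moved up to the second place for miR-221, where it was 0.55 above SH3 against an SD of 0.52, and for miR-222 LS3 stood 0.48 above SH3 against an SD of 0.46.

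Over the 35 arrays the 3 detected microRNAs with the pattern most like that of miR-126, on centred values, were miR-99b, let-7g and miR-125b (Pearson r = 0.963, 0.949 and 0.946 among 815 candidates). For miR-126* they were miR-107, miR-30a and miR-101b (r = 0.91, 0.906 and 0.9). For miR-221 the nearest was miR-222 itself (r = 0.804), then miR-450a and miR-532-5p (r = 0.801 and 0.755), and for miR-222 they were miR-106a, miR-500 and the array maker's miRPlus-E1290 (r = 0.84, 0.834 and 0.826). Between miR-126 and miR-221 r was -0.04 over the same arrays after centring. These r values are descriptions, since the arrays share batches and signal depth.

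Of 19 other microRNAs known from vessel growth and hypoxia, 16 were detected. In LS1 and LS3 against sham of the same day none was called, with median changes of -0.04 and -0.31, against 0.12 and -0.24 for all detected. In LS7 against SH7, 8 were called lower and 1 higher, where 58.4% of all microRNAs tested were called lower, with a median of -0.95, against -1.001 for all detected. These calls are on VSN values. After centring each array the median of the list was -0.21, with 5 of the 16 above 0, against -0.26 for all detected. The largest changes among these were miR-100, which in human and mouse vessels targets mTOR (-2.53 ± 0.48, limma adjusted p = 0.000661), miR-10a, an endothelial microRNA (-1.90 ± 0.41, limma adjusted p = 0.0013), and miR-23b of the miR-23/27/24 cluster (-1.69 ± 0.44, limma adjusted p = 0.0038). The 1 higher call was miR-155, a microRNA of activated immune and endothelial cells (0.75 ± 0.29, limma adjusted p = 0.0302).

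At 7 days markers of other cells in the fragment, myeloid and platelet markers excepted, were called lower beside miR-126 and miR-126*. In that comparison 58.4% of all microRNAs tested were called lower, and neither miR-221 nor miR-222 was called. These calls are on VSN values. After centring, the median changes were -0.84 for mural, -1.59 for erythrocyte, -1.25 for neuronal and -1.92 for oligodendrocyte markers. They were -0.24 for skeletal muscle and 0.26 for myeloid and platelet markers, against -0.26 for all detected. The mural markers miR-143 and miR-145 were both called lower in LS7 against SH7 (-1.25 and -1.92), and their summed VSN value on a linear scale was 652 to 2780 in LS7, against 3043 to 4263 in SH7. The 3 erythrocyte microRNAs miR-451, miR-144 and miR-486 were all called lower, with sums of 602 to 7030 in LS7, against 4987 to 22275 in SH7. All 3 neuronal markers (miR-124, miR-9, miR-9*) and both oligodendrocyte markers (miR-219, miR-338) were called lower as well, with medians of -1.99 and -2.66. Of the 3 myeloid and platelet markers none was called, with a median of -0.49 and sums of 1196 to 4968 in LS7, against 1733 to 6359 in SH7. Of the 4 skeletal muscle microRNAs 3 were detected and all 3 were called lower, with a median of -0.98, against -1.001 for all detected. The sums over all 4 probes, the undetected one included, were 119 to 228 in LS7, against 374 to 497 in SH7. In LS3 against SH3, where 5.15% of the microRNAs tested were called, 2 of the 3 neuronal markers (median -1.29) and 1 of the 3 muscle markers (median -0.57) were called lower. No mural (median -0.82), oligodendrocyte (-0.97), erythrocyte (1.34) or myeloid and platelet marker (1.06) was called, and the changes of the 3 erythrocyte and the 3 myeloid and platelet markers were all above 0. The part of these cell types in the members' changes was not tested.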

How the data were processed

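Total RNA was labelled with Hy3 and hybridized to Exiqon miRCURY LNA v.11 arrays by the authors, who deposited GenePix spot intensity tables and, for all 35 samples, VSN values on a log2 scale (used as an alternative). The deposited flag score of each spot was set by the authors' scanner software. The sample in the red channel (635 nm) is not given in the sources used here. One spot table used decimal commas and another named its background columns differently. For 2 arrays (LS7 replicate 4, SH7 replicate 1) the deposited values did not match the spot intensities in rank.

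From the green (532 nm) medians the local background was subtracted, spots flagged -100 were dropped, VSN was fitted across 35 arrays on 7063 microRNA spots (own implementation, least trimmed squares share 0.9), and the median over spots was taken. A microRNA was detected if over 0.5 of its spots exceeded the mean of 28 negative-control spots by 2 SD in 3 of 5 animals of a group. limma 3.58.1 (R 4.3.3) was fitted on the 10 arrays of each pair of groups over detected microRNAs with an interquartile range above 0.5, with Benjamini-Hochberg adjustment at 0.05. miR-126 missed that filter and was tested over all detected microRNAs. Exact permutation tests used Python 3.11.15. The limma step was tested on simulated data. The members and lists were chosen with earlier results of these data known. The named microRNAs were the 4 members, the 3 nearest in pattern to each, and called members of the vascular list, at most 3 a day by size and the 1 higher call, which was named after its value was seen. No source says what a shared replicate number stands for, so it was a block only in an alternative. The study calls its limma test paired. Alternatives were 8 other values or scalings, filters, blocks, array weights and each animal left out. Array precision rests on 5 animals a group.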

Additional observations from a re-analysis of the deposited data

Results flagged for a closer look

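Among 42 sets of 5 animals (the 4 microRNAs and 2 within-array differences in 7 groups), the gap of the most extreme animal to its nearest neighbour, divided by the range, passed Dixon's limit of 0.71 in 2, where chance gives about 1 in 20. They were miR-126 in LS3 replicate 2 (10.02, ratio 0.778) and miR-222 in SH1 replicate 2 (6.92, ratio 0.744). The effect of contusion against sham differed between 7 and 1 days by a limma interaction contrast for miR-126 (-1.53, adjusted p = 0.00592), miR-126* (-1.42, adjusted p = 0.00758) and miR-222 (-1.11, adjusted p = 0.049), each with a sign that turned under at least 1 other scaling. The other strand miR-221*, outside the comparisons, was detected on 4 of the 5 LS1 arrays, against 1 of the 5 CT arrays.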

How the results depend on the processing

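Each value was recomputed under 17 alternatives, where they could be fitted, and with each animal left out. Of 192 recomputed contusion against sham values of the members, 147 kept their direction and their side of the threshold, 5 lost a call, 7 gained one, 9 turned with a call on either side and 24 moved without a call; of 120 with 1 animal left out, 99 kept both, 3 gained a call and 18 moved. Of 560 values of the other comparisons 431 kept both, and of 156 day contrasts 104.
At 1 day, scaling to the spiked-in controls gave 1.67, 1.66, 1.62 and 1.92 for miR-126, miR-126*, miR-221 and miR-222, all called. Without a call, miR-126 was 0.023 as the mean over spots, 0.0065 without background subtraction and 0.00082 as the ratio to red; miR-126* was -0.16 in the deposited values, -0.17 and -0.089 scaled to the 75th percentile of all and of everywhere detected microRNAs, -0.26 centred, -0.21 after normexp and -0.098 as the ratio; miR-221 was -0.11, -0.21, -0.13, -0.25, -0.036 and -0.14 in the same order; miR-222 was -0.015 after normexp and -0.20 as the ratio.
At 3 days miR-126* passed with the replicate block (-0.87, limma adjusted p = 0.0452) and after normexp (-0.41, 0.0291). At 7 days miR-126 was -0.81 centred, 0.18 at the everywhere detected percentile, 0.070 after normexp and 0.18 as the ratio; miR-126* was -0.67 centred, -1.73 with scan day as a block, 0.66 at that percentile, -0.33 after normexp and -0.25 as the ratio. miR-221 was 0.20 and 1.86 at the 2 percentiles, 0.087 by spike-in, 0.62 centred, 0.50 with scan day, 0.25 deposited, 0.30 after normexp and 0.30 as the ratio; miR-222 was 1.08 at the everywhere detected percentile, 0.41 after normexp, 0.59 as the ratio, -0.82 in 1 fit of all groups (called) and -1.04 with array weights (called).
Other contrasts that turned were miR-126* in LS1 against CT (0.94, spike-in); in LS7 against CT, miR-126 (0.071 at the everywhere detected percentile, 0.20 as the ratio), miR-126* (0.60 at the percentile) and miR-222 (1.37, 0.73 and 0.77 at the percentile, by normexp and as the ratio); in LS7 against LS1, in the same order, miR-126 (0.32, 0.23, 0.26; 0.38 with scan day), miR-126* (0.80, 0.021, 0.14; 0.47 with scan day) and miR-222 (1.22, 0.78, 0.90). The contrast of days 7 and 1 turned for miR-126 (0.26, 0.10, 0.18), miR-126* (0.75 at the percentile), miR-221 (1.99 at the percentile) and miR-222 (0.91, 0.42, 0.79).
The number of microRNAs called at 1 day, 0 in limma, was 3 in the deposited values, at the 75th percentile of all and in 1 fit of all groups, 803 by spike-in, 6 as the ratio and 87 with array weights. At 3 days, 37 became 0 at the everywhere detected percentile and by spike-in, 60 after normexp, 90 as the ratio, 4 without a filter, 81 in 1 fit, 5 with scan day, 119 with the replicate block and 151 with array weights. At 7 days, 456 became 222 in the deposited values, 96 after normexp, 87 as the ratio, 697 without a filter and 145 with scan day; the replicate block gave 437, and the 75th percentile of everywhere detected microRNAs gave 479, of which 476 were higher.
The within-array strand difference at 1 day was 0.18 after normexp, 0.0047 under both percentiles and spike-in, 0.10 as the ratio and 0.017 as the mean over spots; at 3 days -0.023 deposited and 0.31 as the ratio (called); at 7 days 0.41 after normexp and 0.43 as the ratio (called). miR-221 minus miR-222 was 0.055 as the ratio at 1 day, -0.11 after normexp and -0.18 as the ratio at 3 days, and -0.10 and -0.29 at 7 days.
With 1 animal left out, changes at 1 day ran from -0.11 to 0.10 (miR-126), -0.14 to 0.13 (miR-126*) and -0.068 to 0.18 (miR-221), miR-222 from -0.031 to 0.50 at 3 days and from -1.06 to -0.63 at 7 days, and miR-221 from -0.33 to 0.043 at 7 days; the strand difference from -0.098 to 0.050, -0.0094 to 0.25 and -0.25 to 0.017 at 1, 3 and 7 days; miR-221 minus miR-222 at 7 days from 0.54 to 0.78; and the called count from 0 to 63 at 1 day (without SH1 replicate 4) and 0 to 73 at 3 days (0 without LS3 replicate 1, 3 or 4 or SH3 replicate 1, 3 or 5, 14 without SH3 replicate 4, 73 without LS3 replicate 2). Same-numbered animals did not deviate together throughout: correlations of their deviations ran from -0.67 to 0.648 over the 12 comparisons, and 0, 2 and 3 of 5 correlated best with their own number at 1, 3 and 7 days. The replicate block changed no member's contusion against sham call at 1 or 7 days. Scan day as a block could not be fitted at 1 day. The cause of these differences was not tested. Signal near background limits miR-126* and miR-221 in LS7.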
